A study of Homo sapiens with 36 samples.

Results

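Distal AP-1 trio sites are regions away from start sites where peaks of the 3 Jun-family proteins JunB, Jun and JunD were all called. The sites described here are those called in the bronchial line BEAS-2B (B2B) and not in the lung cancer line A549. The JunB, Jun and JunD peaks of B2B were merged into 48020 regions, and a region was kept if it held a peak of each protein, lay more than 1 kb from any GENCODE start site, had no A549 peak of JunB, Jun or JunD within 1 kb, and lay outside 1-Mb bins without a start site. This left 758 sites, 1.58% of the merged regions. Of the 48020 regions, 4413 were bound by all 3 proteins, and 825 of these had no A549 Jun-family peak within 1 kb. The distance to start sites then removed 67 regions, and the bins without a start site removed 0.

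The series holds ChIP-seq of A549, labelled human lung adenocarcinoma, and of B2B, labelled human bronchial epithelial, a non-cancerous line immortalised with viral genes. The 36 samples form 18 groups of 2 replicates, with pol II, Med1, H3K4me3, H3K27ac, JunB, Jun, JunD and input in both lines, and CTCF and Rad21 in B2B. No treatment is given in the labels, and both lines were grown in the same medium per the study's methods. The authors merged the replicates before calling peaks, so each of the 16 peak lists is 1 pool with no replicate error, the numbers of reads are not given in the sources used here, and the 95% intervals below cover counting error over regions only. Each condition is 1 cell line, so a difference between lines cannot be told apart from any other difference between these cultures, and in a pool fewer cells with a bound site and weaker binding in each cell cannot be told apart.

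AP-1 is a dimer of basic leucine zipper proteins, made of a Jun protein paired with another Jun protein or with a Fos or ATF partner, and it is induced by growth factor, stress and MAP kinase signals. Its dimers bind a short palindromic motif, and much of the binding lies in distal enhancers, where AP-1 is known to sit beside factors such as TEAD and RUNX. Jun is the classic activating member, JunB often opposes it, and JunD is the most constitutive of them. H3K27ac and the Mediator subunit Med1 mark active enhancers, H3K4me3 marks promoters, pol II is RNA polymerase II, and CTCF and the cohesin subunit Rad21 mark insulators and loop anchors.

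Sequence around the Jun summit, the position of highest Jun signal in a site, is shown for 7 of the 8 sites with the highest summed fold enrichment of the 3 proteins, because these sites differ in which motifs they hold. Each run spans 101 bp of hg38, plus strand, with the summit in the middle. Capitals mark AP-1 (TGACTCA), RUNX (TGTGGTT), TEAD (GGAATGT) and E-box (CAGCTG) matches on either strand.

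chr18:42446318-42446418: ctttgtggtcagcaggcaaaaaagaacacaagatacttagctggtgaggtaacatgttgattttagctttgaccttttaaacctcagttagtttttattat
chr5:149002234-149002334: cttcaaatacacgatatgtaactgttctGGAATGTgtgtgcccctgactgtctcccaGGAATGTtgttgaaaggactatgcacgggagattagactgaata
chr15:39391398-39391498: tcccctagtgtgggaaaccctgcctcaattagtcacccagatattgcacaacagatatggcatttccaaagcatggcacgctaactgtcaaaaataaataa
chr5:97838372-97838472: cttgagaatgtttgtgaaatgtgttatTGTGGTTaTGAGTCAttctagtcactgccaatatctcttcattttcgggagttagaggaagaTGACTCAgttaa
chr13:113897341-113897441: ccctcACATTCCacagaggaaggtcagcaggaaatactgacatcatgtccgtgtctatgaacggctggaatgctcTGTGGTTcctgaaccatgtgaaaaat
chr5:74034893-74034993: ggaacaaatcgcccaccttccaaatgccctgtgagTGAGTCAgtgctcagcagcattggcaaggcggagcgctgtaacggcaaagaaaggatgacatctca
chr9:22103431-22103531: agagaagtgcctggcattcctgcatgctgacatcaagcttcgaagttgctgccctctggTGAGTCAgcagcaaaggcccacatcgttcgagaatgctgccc

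Of these 7 windows, 3 held an AP-1 match, on chromosomes 5 (97838372 to 97838472 and 74034893 to 74034993) and 9. A TEAD match lay in 2 of the other 4, and the windows on chromosomes 18 and 15 held none of the 4 motifs. In the site at chr5:97838187-97838747 a RUNX match and an AP-1 match lay 1 bp apart, with a second AP-1 match further along. Sequence is shown in the same way for the 4 sites with the strongest B2B H3K27ac peak, which carry the clearest enhancer mark of the set.

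chr7:46456464-46456564: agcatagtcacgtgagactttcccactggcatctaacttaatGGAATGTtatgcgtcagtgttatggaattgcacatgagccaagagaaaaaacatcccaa
chr21:42040562-42040662: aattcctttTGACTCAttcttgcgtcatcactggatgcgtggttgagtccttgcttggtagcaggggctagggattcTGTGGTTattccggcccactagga
chr22:24474379-24474479: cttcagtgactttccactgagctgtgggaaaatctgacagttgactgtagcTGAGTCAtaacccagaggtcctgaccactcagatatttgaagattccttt
chr3:197394724-197394824: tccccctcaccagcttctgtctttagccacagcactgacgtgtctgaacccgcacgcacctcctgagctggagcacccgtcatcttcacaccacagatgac

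The AP-1 match was present in the windows on chromosomes 21 and 22, a TEAD match in that on chromosome 7, and none of the 4 motifs in that on chromosome 3.

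The sites were chosen by the presence and absence of JunB, Jun and JunD peaks, so the Jun-family values are given as a description only. Fold enrichment is the deposited ratio of the signal at a summit to the local background of the peak caller, and values of different lists are not on 1 scale. The median JunB fold enrichment over the 758 sites was 7.20, with quartiles of 5.77 and 8.89. The Jun median was 27.4, with quartiles of 20.8 and 35.03, and the JunD median was 5.91, with quartiles of 5.01 and 7.27. These medians lay at percentile 60.3 of the whole B2B JunB list, 92.2 of the Jun list and 58.5 of the JunD list. The sites were therefore among the stronger Jun peaks of B2B, and nearer the middle of the JunB and JunD lists. Of the 3 proteins, JunD had the weakest q-value at 577 sites, JunB at 180 and Jun at 1. The lowest −log10 q among the sites was 2.37 for JunD, 3.24 for JunB and 4.24 for Jun, against a threshold of 2 in every list.

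**Figure D1:**
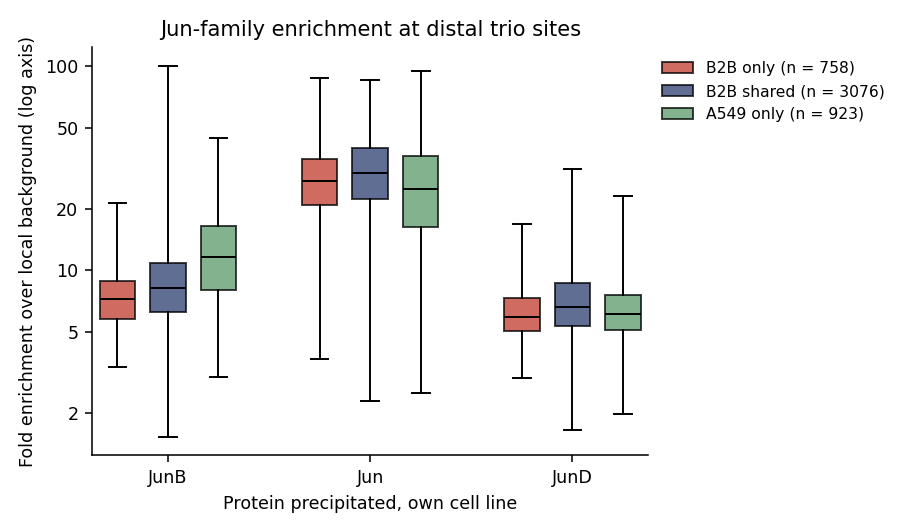
Fold enrichment over local background (log axis) of JunB, Jun and JunD at the 758 B2B-only sites, the 3076 shared sites of B2B and the 923 A549-only sites, each in its own cell line; boxes span the quartiles, lines mark the medians and whiskers reach the lowest and highest value. The B2B-only medians of 7.20, 27.4 and 5.91 lie a little under the shared medians of 8.15, 30.0 and 6.61.

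Sites were set beside 3 other sets, used throughout. Shared sites are the 3076 distal trio regions of B2B with an A549 Jun-family peak within 1 kb. A549-only sites are the 923 distal trio regions of A549 found by the mirrored rule. Jun-alone sites are the 20498 distal B2B regions with Jun but neither JunB nor JunD and no A549 Jun-family peak within 1 kb. They were not matched to the B2B-only sites in Jun fold enrichment, so differences from them cannot be told apart from differences in Jun strength. The summits of the 3 proteins lay close together at the B2B-only sites, within 100 bp of each other at 682 of 758 (90.0%), with a median spread of 39 bp. The median site was 480 bp wide.

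Values near the distances of the rule were as follows. The site nearest to an A549 Jun-family peak lay 1024 bp from it, at chr3:55000580-55000883. JunB reached 7.47 there, Jun 16.6 and JunD 7.65. The next lay 1124 bp away at chr6:106548156-106548482, with 6.79, 23.1 and 6.26 in the same order. Just outside were regions at 953 bp (chr20:48294236-48294516) and 867 bp (chr11:28833617-28834154), with Jun fold enrichments of 8.62 and 29.1. Their JunB values (5.55 and 5.43) and JunD values (5.07 and 4.74) were lower than those of the pair just inside. For the start sites, the nearest kept sites lay 1015 bp (chr12:64461651-64462050) and 1018 bp away (chr15:52093451-52094276), with Jun fold enrichments of 26.5 and 37.6, JunB of 10.9 and 5.23 and JunD of 4.87 and 4.11. Regions at 995 bp (chr20:41482558-41483511) and 882 bp (chr5:35857775-35858191) were left out, with Jun at 32.2 and 23.02, JunB at 5.27 and 6.35 and JunD at 5.30 and 5.01, so here neither pair was lower throughout. The median distance was 30147 bp to the nearest A549 Jun-family peak, 15010 bp to the nearest start site of any gene and 36270 bp to the nearest protein-coding start site. By GENCODE, 488 Jun summits (64.4%) lay in introns, 230 (30.3%) between genes and 40 (5.28%) in exons.

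Of the 8 strongest sites, 5 lay in introns of non-coding genes. The highest summed fold enrichment, 108, was at chr18:42446060-42446706 in an intron of the non-coding gene LINC00907, where Jun reached 87.3, JunB 7.13 and JunD 13.9. This site carried CTCF (6.77-fold) and Rad21 (5.65-fold) peaks but no B2B pol II, H3K27ac or H3K4me3 peak. The next, at chr5:149001954-149002679, overlapped an exon of SH3TC2, a gene expressed in Schwann cells, with Jun at 74.9, JunB at 18.3 and JunD at 7.91. There CTCF (49.8-fold), pol II (37.2-fold), Med1 (11.7-fold) and Rad21 (5.50-fold) peaks overlapped the site. At chr15:39391183-39391663, 189416 bp from THBS1, the gene of the matrix protein thrombospondin-1, the fold enrichment was 21.1 (JunB), 66.1 (Jun) and 10.4 (JunD). The site at chr5:97838187-97838747 reached 16.3, 61.9 and 16.8, with CTCF and Rad21 peaks and none of pol II, Med1, H3K27ac or H3K4me3. The site at chr13:113897049-113897626, 32973 bp from GAS6, the ligand of the AXL receptor kinase, had a Jun value of 62.5 and an H3K27ac peak of 13.6-fold. At chr5:74034541-74035396, 126141 bp from ARHGEF28, the Jun value was 55.9. The eighth lay at chr9:22102938-22103984 in an intron of CDKN2B-AS1, with 19.2, 58.9 and 10.5 and with Med1 (29.4-fold), CTCF (18.9-fold), pol II (16.5-fold), Rad21 (8.48-fold) and H3K27ac (5.89-fold) peaks. Each of the 8 sites had a CTCF peak and 6 a pol II peak, whereas 2 had an H3K27ac peak. Med1 was scored on chromosomes 1 to 12 only, which leaves out the 3 sites on chromosomes 13, 15 and 18.

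To ask what the sites hold in sequence, a measure the rule did not use, the AP-1 motif was searched within 50 bp of the Jun summit. It was found at 403 of 758 sites, 53.2% (95% interval 49.6 to 56.7%), against 1.39% of windows of the same length 2 kb to each side. Shared sites held it more often, at 67.8%, a difference of -14.6 percentage points (-18.5 to -10.7). A549-only sites held it at 47.9% and Jun-alone sites at 28.9%, so the B2B-only sites stood 5.28 points (0.476 to 10.05) above the first and 24.2 points (20.6 to 27.8) above the second. Where present, the match lay a median of 14 bp from the Jun summit. At 16 sites there were 2 matches, and at 355 there were 0. The related CRE motif (TGACGTC), preferred by dimers with ATF or CREB proteins, was found at 4 sites, 0.528%.

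Motifs of other factors were searched within 100 bp of the summit, where the median GC content was 44.3% at B2B-only and 44.8% at shared sites. The RUNX motif was the one that set the sites apart most from the shared sites. It lay at 116 of 758 sites, 15.3% (12.9 to 18.04%), against 6.92% of shared, 10.1% of Jun-alone and 3.79% of A549-only sites and 3.03% of windows 2 kb away. The difference from shared sites was 8.38 points (5.81 to 11.2), that from Jun-alone sites 5.17 (2.74 to 7.93) and that from A549-only sites 11.5 (8.73 to 14.4). RUNX factors are runt-domain proteins known as partners of AP-1 at enhancers. Both a RUNX and an AP-1 match were present at 58 sites, with a median of 33.5 bp between their starts and 16 pairs within 20 bp.

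The TEAD motif, bound by the nuclear partners of YAP, lay at 12.5% of sites (10.4 to 15.1%), against 11.02% of shared and 12.4% of Jun-alone sites, and both differences had intervals that included 0. Against the 3.47% of A549-only sites the difference was 9.07 points (6.49 to 11.8). The E-box (CAGCTG), read by basic helix-loop-helix factors, lay at 18.6%, 3.55 points (0.631 to 6.72) above shared sites. It stood 9.83 points (6.54 to 13.2) above A549-only sites. Forkhead matches (TGTTTAC), the motif of FOX factors, were the reverse case, with 2.11% at B2B-only, 4.81% at shared and 13.001% at A549-only sites, a difference from the last of -10.9 points (-13.4 to -8.50). That share was also near the 2.77% of windows 2 kb away. The NFI half-site (TTGGCA) lay at 20.4%, the AGATAA motif of GATA factors at 10.7%, ETS (ACAGGAA) at 6.46% and C/EBP (TTGCGCA) at 0.396%. The intervals of their differences from shared sites all included 0. Against A549-only sites the NFI difference was 9.18 points (5.68 to 12.7) and the GATA difference -3.94 (-7.09 to -0.729). The ETS and C/EBP intervals included 0 there too. The GATA difference from Jun-alone sites was -3.16 points (-5.23 to -0.718). TEAD and RUNX shares were both higher where no AP-1 match lay within 100 bp, a wider window than the 50 bp above. For RUNX the intervals of the shares overlapped, which does not decide whether they differ, and no interval of the difference was computed. TEAD was at 19.9% of the 311 sites without AP-1 (15.9 to 24.7%) and 7.38% of the 447 with AP-1 (5.30 to 10.2%). For RUNX the shares were 18.6% (14.7 to 23.4%) and 12.98% (10.2 to 16.4%). The other sets showed the same order. Without and with AP-1, TEAD was at 15.5% and 9.32% of shared, 14.8% and 7.69% of Jun-alone and 5.19% and 1.88% of A549-only sites. RUNX was at 8.77% and 6.23% of shared, 11.7% and 7.01% of Jun-alone and 5.19% and 2.50% of A549-only sites. Motif matches are letters in a window and do not show which factor was bound.

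**Figure D2:**
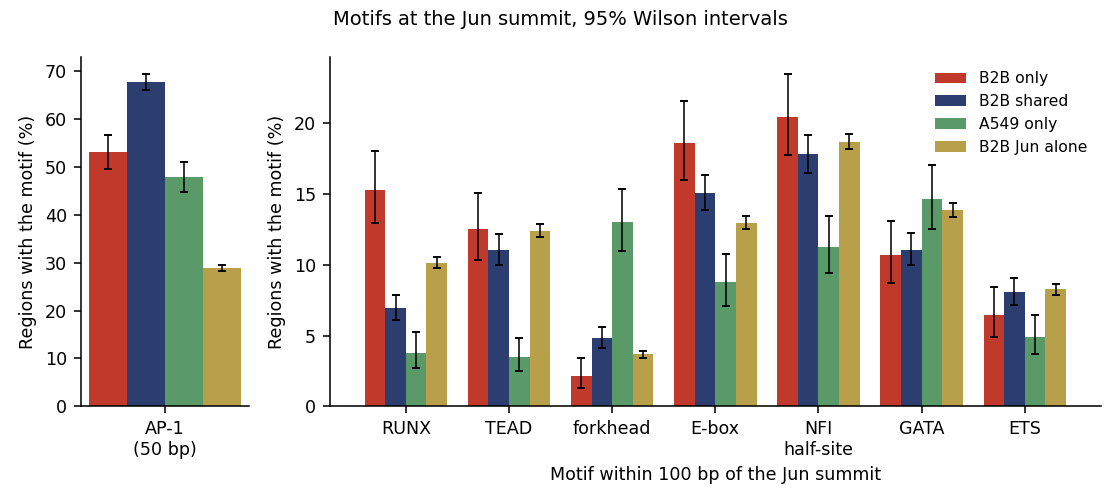
Percentage of regions with an AP-1 match within 50 bp (left) or another motif within 100 bp (right) of the Jun summit in the B2B-only, shared, A549-only and Jun-alone sites; error bars are 95% Wilson intervals. RUNX matches reach 15.3% at B2B-only sites against 6.92% at shared sites, and forkhead matches reach 13.001% at A549-only sites against 2.11%.

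Motif content was also described by the strength of the sites, a grouping that uses the values of the rule and, since Jun has the highest values, follows mainly Jun. The sites were split at their own tertiles of summed fold enrichment, 35.7 and 46.7, and shared sites were split at the same values. In B2B-only sites the AP-1 share was 61.7% in the lowest band, 56.7% in the middle and 41.1% in the highest (35.2 to 47.3%). In shared sites the same bands held 70.2%, 70.3% and 64.8%. The difference between the sets was thus -8.58 points (-15.4 to -1.95), -13.5 (-20.4 to -6.80) and -23.7 points (-30.1 to -17.1). RUNX went the other way, with 11.5%, 13.5% and 20.9% at B2B-only sites and 5.48%, 6.08% and 8.25% at shared sites. All 3 RUNX differences had intervals above 0, and that in the highest band was 12.7 points (7.88 to 18.3). TEAD shares were 9.88%, 11.1% and 16.6%, with no band in which the interval of the difference from shared sites left out 0. E-box shares were 23.3%, 14.7% and 17.8%. Their difference from shared sites was 7.13 points (1.63 to 13.2) in the lowest band. In the middle (0.881, -3.69 to 6.23) and highest bands (2.62, -2.03 to 8.10) the interval included 0.

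**Figure D3:**
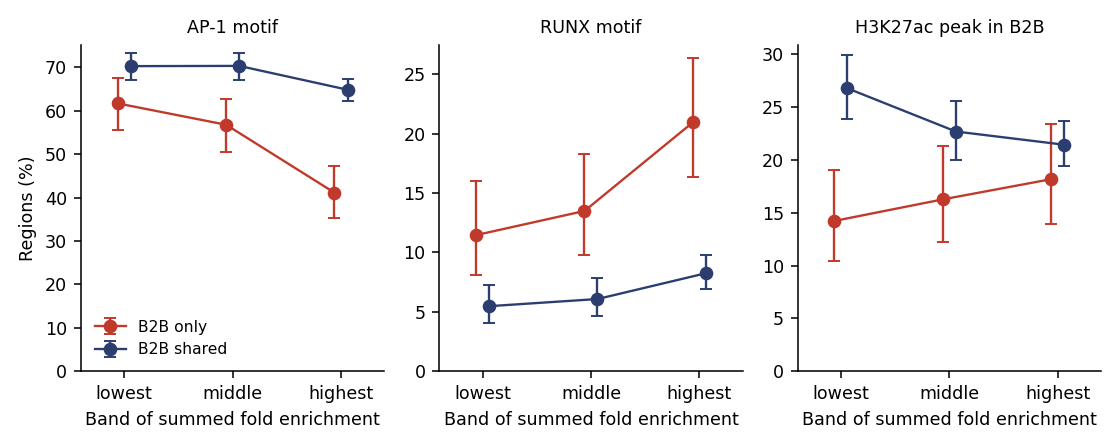
Percentage of B2B-only (red) and shared (blue) sites with an AP-1 motif, a RUNX motif or a B2B H3K27ac peak, in 3 bands of summed fold enrichment of JunB, Jun and JunD; error bars are 95% Wilson intervals. The AP-1 share of B2B-only sites falls from 61.7% to 41.1% across the bands while the RUNX share rises from 11.5% to 20.9%.

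To examine the chromatin state of the sites, peaks of the other lists were overlapped with them by at least 1 bp. Enhancer and promoter marks of B2B were present at a minority of sites. H3K27ac was called at 123 of 758 (16.2%, 13.8 to 19.02%), or at 30.6% when a peak within 1 kb was counted. H3K4me3 was called at 77 (10.2%, 8.20 to 12.5%) and pol II at 352 (46.4%, 42.9 to 49.997%). Med1, scored on chromosomes 1 to 12 because the list stops early, was called at 167 of 573 (29.1%, 25.6 to 33.0%). Shared sites carried H3K27ac more often (23.2%, a difference of -6.95 points, -9.84 to -3.80) and Med1 more often (35.03%, -5.88 points, -9.95 to -1.59). For pol II the difference was -2.88 points (-6.82 to 1.09) and for H3K4me3 -1.35 points (-3.63 to 1.24), so neither could be told from 0. The H3K27ac difference lay at -12.5 points (-17.5 to -6.88) in the lowest band of summed fold enrichment and at -3.26 (-8.06 to 2.35) in the highest. Jun-alone sites, not matched in Jun strength, carried less of each mark, with H3K27ac at 6.15% and pol II at 8.15%. Within the B2B-only sites the pol II share was 34.0% in the lowest band and 62.1% in the highest. On chromosomes 1 to 12, 257 of 573 sites (44.9%) had none of H3K27ac, Med1, pol II and H3K4me3. Pol II alone was the most frequent combination after that, at 93 sites, followed by Med1 with pol II at 63. H3K27ac and Med1 together were found at 60 sites, 10.5%, against 15.7% of shared sites.

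In A549 the same regions were nearly bare of peaks. On chromosomes 1 to 12, which every list covers, A549 H3K27ac was called at 1 of 573 sites, H3K4me3 at 4, pol II at 8 and Med1 at 0, which allows a share of up to 0.524% when 3 counts are taken as the limit. None of the 4 marks was called at 563 of 573 sites, 98.3% (96.8 to 99.0%). At shared sites the figure was 49.2%. The difference between lines over the same sites was 15.01 points for H3K27ac (paired interval 12.2 to 18.2) and 29.1 for Med1 (25.5 to 33.0). For pol II it was 43.8 (39.7 to 47.9) and for H3K4me3 9.77 (7.35 to 12.5). At the shared sites the corresponding differences were 1.92, 7.42, 4.61 and -7.55 points. At A549-only sites they were -25.6, -37.4, -58.7 and -31.9 points. Their direction thus went with the line in which the sites were picked, and they are given as a description only. The rule removed A549 Jun-family peaks only, not A549 marks, and 14801 of 15266 Jun-alone sites (97.0%), chosen with the same distance to A549 peaks, also lacked all 4.

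The mirrored set differed in its marks. A549-only sites carried A549 H3K27ac at 32.8%, Med1 at 45.8%, pol II at 62.5% and H3K4me3 at 34.2%, against 15.2%, 29.1%, 45.2% and 10.5% for B2B-only sites with B2B marks. The differences were -17.6 points (-22.2 to -12.9), -16.7 (-22.0 to -11.3), -17.3 (-22.7 to -11.7) and -23.8 (-28.1 to -19.2). The lists of the lines were not alike in enrichment. Median fold enrichments were 12.8 for H3K4me3 in A549 and 3.42 in B2B, 10.8 and 5.49 for H3K27ac, 6.79 and 4.86 for pol II, and 6.72 and 6.33 for Med1, and their part in these differences was not tested.

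**Figure D4:**
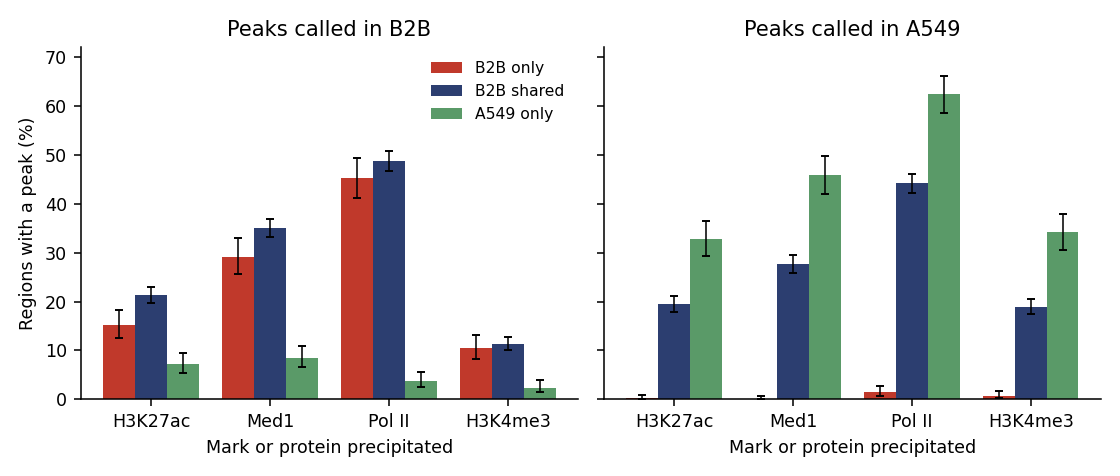
Percentage of B2B-only, shared and A549-only sites on chromosomes 1 to 12 that overlap an H3K27ac, Med1, pol II or H3K4me3 peak called in B2B (left) or A549 (right); error bars are 95% Wilson intervals. B2B-only sites reach 45.2% for B2B pol II and stay under 2% for every A549 mark.

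The sites with the strongest H3K27ac were spread over several chromosomes. The highest, 30.3-fold, lay between genes at chr7:46456078-46456731, 534204 bp from IGFBP3, the gene of a secreted binding protein of insulin-like growth factors, with Jun at 55.8 and pol II at 22.4. The next were at chr21:42040362-42041080 in ZNF295-AS1 (22.7-fold, Jun 25.3), at chr22:24474183-24474934 in ADORA2A-AS1 (22.1-fold, Jun 42.7) and at chr3:197394487-197395387, 95157 bp from DLG1, a scaffold protein of cell junctions (22.1-fold, Jun 40.7). A site at chr9:70600969-70601770 in an intron of the ion channel gene TRPM3 had the highest Med1 value of the 6 that could be scored, 61.9-fold, with H3K27ac at 18.2. The others lay in introns of PRKRIP1 (21.4-fold) and ANO2 (20.9-fold) and 24951 bp from DNAJB6, a co-chaperone (17.0-fold). All 8 carried pol II and CTCF peaks, 0 carried an H3K4me3 peak, and 4 held an AP-1 match within 50 bp of the summit.

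CTCF was the protein called most often at the sites. A B2B CTCF peak overlapped 560 of 758, 73.9% (70.6 to 76.9%), and Rad21 overlapped 144, 19.0% (16.4 to 21.9%). Shared sites gave 73.1% and 19.5%, with differences of 0.764 points (-2.82 to 4.16) and -0.541 points (-3.54 to 2.71), whereas Jun-alone sites gave 23.2% and 4.74%. Over the bands of summed fold enrichment, from lowest to highest, the CTCF share was 67.6%, 72.6% and 81.4%. Shared sites also rose, with 61.0%, 69.2% and 82.3%, and in each band the interval of the difference included 0. The CTCF core motif of 12 positions was found in 0 of the 758 sites, which by the same limit of 3 counts allows a share of up to 0.396%. The 606 CTCF peaks at the sites held it within 50 bp of their own summit in 1 case (0.165%) and held the AP-1 motif in 147 (24.3%). CTCF peaks of B2B without a Jun-family peak held the CTCF motif in 13.5% of cases, the AP-1 motif in 1.33% and a Rad21 peak in 41.4%, against a Rad21 peak in 20.8% at the sites. CTCF peaks at shared sites held the CTCF motif in 1.34%, the AP-1 motif in 33.2% and a Rad21 peak in 21.9%. The median fold enrichment of the 606 CTCF peaks was 8.36, at percentile 46.6 of the CTCF list.

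Within a site the summits were ordered by distance from the Jun summit. JunB and JunD summits lay a median of 23 and 22 bp away. CTCF followed at 48.5 bp, with 428 of 560 within 100 bp, then Med1 at 69 bp, Rad21 at 89 bp and pol II at 107 bp. H3K27ac summits lay a median of 276 bp away, 0 of 123 within 50 bp. Shared sites showed nearly the same medians, 52 bp for CTCF, 69 for Med1, 102 for pol II and 287 for H3K27ac.

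**Figure D5:**
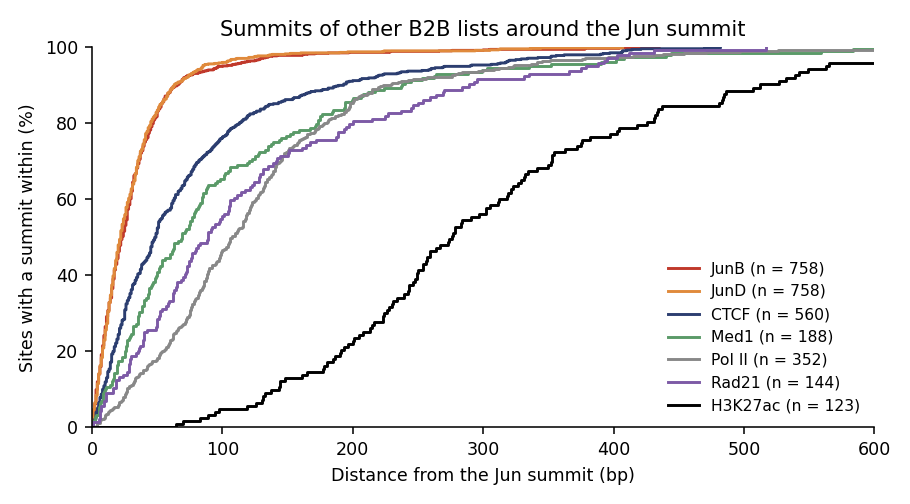
Cumulative percentage of B2B-only sites whose nearest summit of another B2B list lies within a given distance (bp) of the Jun summit, for the sites that overlap a peak of that list (n in the legend, Med1 as far as its list runs). JunB and JunD rise first, CTCF reaches 76.4% by 100 bp, and H3K27ac reaches 4.88% there.

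To ask which genes lie near the sites, protein-coding genes with a start site within 100 kb were counted. There were 1021 such genes of 20007, 5.1% of all, against 20.8% for shared and 8.06% for A549-only sites, sets of other sizes. Of the 1021 genes, 906 had 1 site, 102 had 2, 9 had 3 and 4 had 4. No link between a site and a gene was measured.

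The genes with 4 sites were CDKN2A, CDKN2B, FRMD4A and PLCG1. CDKN2A (ENSG00000147889.18, chromosome 9, 21967752 to 21995301, minus strand) and CDKN2B (ENSG00000147883.12, 22002903 to 22009305, minus strand) encode cell cycle inhibitors, and the locus is known to be deleted in A549. Sites lay in an intron of MTAP (21873712 to 21874361, Jun 55.1) and along CDKN2B-AS1 at 22030246 to 22030605 (Jun 21.7), 22052119 to 22053093 (Jun 36.5), 22084446 to 22085080 (Jun 51.3) and 22102938 to 22103984 (Jun 58.9). A549 had no H3K4me3 or Jun-family peak over 345619 bp there, from 21812742 to 22158362, where B2B had 37 Jun-family and 15 H3K4me3 peaks. At these 5 of the 758 sites absent DNA and absent binding in A549 cannot be told apart. Over the whole set, 11 sites had no A549 H3K4me3 or Jun-family peak within 500 kb, the farthest being chr21:21200100-21200579, 38763 bp from the cell adhesion gene NCAM2 and 2003746 bp from the nearest A549 Jun-family peak.

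FRMD4A (chromosome 10, minus strand), a scaffold protein of epithelial polarity, had 4 intronic sites. That at 14396959 to 14397482 carried H3K27ac, Med1, pol II, CTCF and Rad21, with JunB at 12.2, Jun at 25.9 and JunD at 5.88. PLCG1 (chromosome 20, plus strand), the phospholipase C of growth factor receptor signalling, had 1 site in its own intron 2361 bp from a start (41177598 to 41178095, JunB 11.2, Jun 36.1, JunD 5.01) with H3K27ac, pol II, CTCF and Rad21. Its other sites lay in TOP1 and in ZHX3, the latter with no H3K27ac, pol II, H3K4me3, CTCF or Rad21 peak, while Med1 was not scored on chromosome 20. SH3TC2 had 3, ARHGAP26 had 3 beside 10 shared sites, and ERCC6L2, a DNA repair helicase, and BTBD3 had 3 each. ARHGAP26 sites reached JunD at 11.7 (143200764 to 143201125). At ERCC6L2, all 3 sites had CTCF and 0 had H3K27ac, pol II or H3K4me3. The site at 95778875 to 95779337 also had Med1, and the others had Rad21. At BTBD3 the site at 11791643 to 11792504 had H3K27ac, pol II, CTCF and Rad21.

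Gene groups were read against the background of 5.1%. Of 20 YAP-TEAD target and pathway genes, 4 had a site, namely CCN1 (11272 bp), YAP1 (29315 bp), PTPN14 (29377 bp) and ANKRD1 (47617 bp). CCN1 and ANKRD1 are targets of YAP, the coactivator encoded by YAP1, and PTPN14 restrains it. Of 20 growth factor receptor genes, 3 had one, namely PDGFRA with a site over its own exon (4203 bp, chr4:54281379-54281772, Jun 17.9), ROR2 (28835 bp) and PDGFRB (77925 bp). In the collagen and matrix list 3 of 24 had one, POSTN (18220 bp), TNC (46341 bp) and COL6A3 (49537 bp), all matrix proteins of mesenchymal cells. TGF-beta pathway genes gave 3 of 22, with the ligands BMP4 (24298 bp) and TGFB3 (81529 bp) and the receptor TGFBR1 (73501 bp). MAPK feedback and immediate early genes gave 3 of 21, with the phosphatase DUSP1 (24027 bp), the factor EGR3 (40905 bp) and the inhibitor SPRY4 (99402 bp). The intervals of the collagen (4.34 to 31.0%), TGF-beta (4.75 to 33.3%) and MAPK (4.98 to 34.6%) shares included 5.1%. Those of the YAP-TEAD (8.07 to 41.6%) and growth factor receptor (5.24 to 36.04%) shares did not. With A549-only sites, TGF-beta genes gave 7 of 22, MAPK feedback genes 4 of 21 and growth factor receptors 3 of 20. Collagen and matrix genes gave 2 of 24 there and YAP-TEAD genes 1 of 20, beside a background of 8.06%.

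The other groups had at most 2 genes with a site each, apart from the oncogene list. Basal airway and keratinocyte genes gave 2 of 17, among them the keratin gene KRT15 (49675 bp). Simple epithelial genes gave 2 of 20, KRT19 and the junction protein TJP1, and the KRT15 and KRT19 sites are the same region in KRT32. Mesenchymal regulators gave 1 of 15 (CDH2, N-cadherin, in its own intron), integrin and adhesion genes 1 of 24 (ITGB8), interleukins and chemokines 1 of 24 (CSF2), and matrix proteases 1 of 20 (ADAM19). AP-1 and bZIP partner genes gave 0 of 16, contractile and actin genes 0 of 18, lung and endoderm regulators 0 of 18 and olfactory receptors 0 of 13. With shared sites the AP-1 list gave 5 of 16, the integrin list 13 of 24 and the contractile list 7 of 18, beside a background of 20.8%. The YAP-TEAD list gave 11 of 20 there, TGF-beta 14 of 22 and collagen and matrix 12 of 24. Growth factor receptors gave 7 of 20 and MAPK feedback genes 7 of 21. The intervals of the YAP-TEAD (34.2 to 74.2%), TGF-beta (42.95 to 80.3%) and collagen (31.4 to 68.6%) shares lay above 20.8%. Those of growth factor receptors (18.1 to 56.7%) and MAPK feedback genes (17.2 to 54.6%) included it. Shares were lower in the basal airway (2 of 17), mesenchymal (2 of 15) and olfactory (1 of 13) lists. Their intervals (3.29 to 34.3%, 3.74 to 37.9% and 1.37 to 33.3%) also included 20.8%. The oncogene list of the study gave 43 of 612 matched genes, 7.03%, with NIN (1991 bp), PLCG1 (2361 bp) and TOP1 (3550 bp) nearest. The same list gave 25.8% with shared and 10.8% with A549-only sites, beside backgrounds of 20.8% and 8.06%. The lists are short and neighbouring genes can share a site, so these counts describe the sites and are not a result about a group.

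The sites were uneven over the chromosomes. Chromosome 5 held 100 of 758, 13.2%, against 7.90% of shared sites and 7.75% of Jun-alone sites, a difference of 5.29 points (2.85 to 8.04) and 5.45 points (3.19 to 8.07). Chromosomes 13 (5.01% against 2.41%) and 21 (2.64% against 1.04%) were also above the shared share, and chromosome 16 (1.06% against 2.31%) was below it. These were the 4 of 24 chromosomes whose interval of the difference from shared sites left out 0. Against Jun-alone sites the interval of chromosome 16 included 0 (-0.857 points, -1.41 to 0.172), and those of chromosomes 4, 9, 20 and X left it out. Without chromosome 5 the 658 remaining sites gave an AP-1 share of 54.3% and an H3K27ac share of 17.2%. Few sites lay together, with 34 sites in 17 pairs within 12.5 kb and no larger cluster.

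The labels were checked with H3K4me3 at start sites. In B2B, 5 of 6 epithelial and 6 of 6 mesenchymal markers had an H3K4me3 peak within 1 kb, whereas 0 of 5 bronchial basal markers (TP63, KRT5, KRT14, KRT15, NGFR) and 0 of 5 markers of blood, endothelial and liver cells did. A549 had 5 of 6 epithelial, 6 of 6 mesenchymal, 2 of 5 basal and 0 of 5 other markers, and of 6 alveolar type II markers A549 had 4 and B2B 2. Any called peak was counted, also those under the B2B list median of 3.42-fold. In B2B these were CDH1 (1.97-fold), KRT7 (2.68-fold), NKX2-1 (2.10-fold) and ABCA3 (1.85-fold). The mesenchymal markers COL1A1 (2.86-fold), ZEB1 (3.14-fold), VIM (3.35-fold) and TWIST1 (3.39-fold) were under it too. CDH2 (3.64-fold), FN1 (5.04-fold), EPCAM (3.89-fold), KRT18 (4.47-fold) and KRT8 (7.76-fold) were above it. The epithelial and mesenchymal counts were the same in both lines, so they do not tell the lines apart. CDKN2A and CDKN2B had H3K4me3 peaks of 10.7-fold and 6.39-fold in B2B and none in A549, whereas MTAP, beside them, had one in both lines, 3.14-fold in B2B and 21.4-fold in A549. The lists held between 8563 peaks (JunB in B2B) and 61225 peaks (CTCF in B2B).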

How the data were processed

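ChIP-seq reads had been aligned to hg38 with Bowtie2 2.4.4, freed of duplicates, merged over 2 replicates and scaled with SAMtools 1.13 by the authors, who called peaks with MACS2 2.2.7.1 (tools per the submitters' processing notes and the study's methods). The options and control of the caller are not given in the sources used here. For each peak the authors deposited a score (10 times −log10 q, rounded down), a fold enrichment ratio, −log10 p and −log10 q. The first was not used further. The read depth behind each list is not given in the sources used here, so precision is stated only as counting error over regions. The A549 H3K27ac list stops on chromosome 13, both Med1 lists on 15 and the A549 pol II list on 20, hence the use of chromosomes 1 to 12.

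Only the autosomes, X and Y were analysed, and 0 peaks passed a chromosome end of the hg38 sequence. Overlapping or touching Jun-family peaks were merged in Python 3.11.15 with NumPy 2.4.6. Start sites came from GENCODE 44 and sequence from hg38 through pysam 0.24.0. Shares have 95% Wilson intervals and differences have Newcombe intervals, paired where both lines were scored on the same regions. For a count of 0 the limit given is 3 counts of the total. No p-value was computed. Interval functions were tested on simulated data against bedtools 2.31.1. Figures were drawn with matplotlib 3.10.9.

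The sites, gene lists, motifs and tests were chosen with earlier results of these data known. Named items are the 8 sites with the highest summed fold enrichment, the 8 with the strongest B2B H3K27ac peak, the 8 genes with most sites (ties by higher summed fold enrichment), up to 3 genes per list with the nearest site, and the sites nearest each limit; 1 site of the first kind and 1 gene of the lists are not reported here. ANKRD1, the sites of CDKN2A near MTAP and the farthest site from A549 peaks were added after their values were seen. The supplementary oncogene list of the study held 618 symbols, more than the number stated in its text. Of these symbols, 612 matched a gene, directly or through an older RefSeq symbol. Alternatives were a −log10 q of at least 5, distances of 5 kb to A549 peaks and 3 kb to start sites, keeping the bins, summits within 100 bp, lists of equal length ranked by −log10 p, marks within 1 kb, chromosomes 1 to 12, genes within 50 kb and motifs within 100 bp. The alternatives without chromosome 5, with TGANTCA and with RUNX within 50 bp, and the RUNX difference itself, were added after the data were seen.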

Additional observations from a re-analysis of the deposited data

How the results depend on the processing

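Over 24 results, 199 of 210 alternative values kept their direction and their side of 0, or stayed within the main interval or within 1.5 times the main count. The number of sites ranged from 573 (chromosomes 1 to 12) to 850 (lists of equal length), and the AP-1 difference from shared sites from -14.7 to -12.0 points. The AP-1 share moved to 57.4% with summits within 100 bp, 59.0% within 100 bp of the Jun summit and 62.7% with TGANTCA. The H3K27ac share was 30.6% within 1 kb of a site. At a −log10 q of at least 5, the CTCF share was 70.2% and the Rad21 share 16.0%. Genes numbered 606 within 50 kb. The CTCF difference from shared sites, already not distinguishable from 0, changed sign with no A549 Jun-family peak within 5 kb (-0.120 points) and on chromosomes 1 to 12 (-0.0920 points). The Rad21 difference did so under the same settings (0.264 and 0.0147 points). The cause of these shifts was not tested.

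No paired analysis was possible because the replicates were merged before peak calling, and leaving out a replicate was not possible either. Pooled lists of unknown depth limit what an absent peak means.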
